A study of Homo sapiens with 12 samples.

Results

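The cytosolic ribosomal proteins are the proteins that, with the ribosomal RNAs, build the ribosome of the cytosol. Their genes were chosen by name: symbols that start with RPL or RPS and a number, with or without the endings A, L or X, together with RPLP0, RPLP1, RPLP2 and RPSA, and without the S6 kinase genes. The rule found 81 of the 26485 genes in the annotation, 49 of the large (60S) subunit and 32 of the small (40S) subunit. It used no measured value.

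Each ribosome carries one copy of most of these proteins, and cells make them in balanced amounts. Their mRNAs are among the most abundant of a growing cell, and most begin with a 5′ terminal oligopyrimidine (TOP) motif, a C at the cap followed by a run of C and U. Through this motif, signalling by mTORC1 sets how strongly the mRNAs are translated and how well they are stored when nutrients or growth signals fail. MEK and LIFR signalling both feed into growth control, and the S6 protein, RPS6, is itself a target of the S6 and RSK kinases.

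OVCAR8 cells, a line from a human ovarian cancer, were treated for 7 h with vehicle (control), with 150 nM EC359, a small-molecule inhibitor of the leukemia inhibitory factor receptor (LIFR), with 100 nM trametinib, a MEK inhibitor, or with both agents (combination). Each of the 4 groups had 3 libraries of polyadenylated RNA, 12 in all, and all came from 1 cell line at 1 time. The labels do not say whether replicates were separate cultures, so p-values measure the spread between these libraries, which may be technical. Values are estimated counts of read pairs per gene from the authors.

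The libraries held 24790392 to 32467283 counts on genes, and the common biological coefficient of variation was 3.95%. The 6 MEK output genes checked (DUSP6, SPRY4, ETV4, ETV5, CCND1, FOSL1) all fell with trametinib, by log2 fold changes from -6.28 to -2.07. PAX8, a marker of serous cancer, stood at 75.8 CPM in control, and keratins KRT7, KRT8 and KRT18 at 976 to 1930 CPM, whereas MUC16 had no count in control. CPM is a gene's counts relative to its library's total, here as scaled by TMM, the trimmed mean of M-values normalization. Of 8 markers of blood, endothelial and fibroblast cells, 2 passed the filter on low counts, LUM at 0.661 CPM and COL1A1 at 427 CPM in control. PTPRC, a marker of white blood cells, and CD3E, a marker of T cells, had no count in control.

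The first bases of the mRNAs are shown for members that moved most and for members that did not follow the others, because the start of the mRNA is where the TOP motif lies. A RefSeq start on GRCh38.p14 was found for 64 of the 81 members, and 17 members had none in the table used. The motif was searched as a C at the start followed by at least 4 bases that are C or T, on the strand of the gene. It was found at 46 of the 64 members, or 71.9%, against 5.14% of all 27305 genes with a start and 6.02% of the 16199 that also stood in the count tables, members included. A gene with several starts counted once if any start held the motif. The lines below give 15 bases before and 15 from the start, with the pyrimidine run in capitals:
RPL28, chr19:55385917-55385946, plus strand: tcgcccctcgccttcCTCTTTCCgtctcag
RPL13A, chr19:49487593-49487622, plus strand: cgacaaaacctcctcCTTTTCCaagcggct
RPS12, chr6:132814554-132814583, plus strand: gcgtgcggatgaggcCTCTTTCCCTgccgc
RPS21, chr20:62387088-62387117, plus strand: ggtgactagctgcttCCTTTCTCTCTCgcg
RPLP2, chr11:809952-809981, plus strand: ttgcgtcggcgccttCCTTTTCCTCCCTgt
RPS6, chr9:19380222-19380251, minus strand: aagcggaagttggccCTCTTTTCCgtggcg
RPL35, chr9:124861943-124861972, minus strand: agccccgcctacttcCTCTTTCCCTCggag
RPS24, chr10:78033848-78033877, plus strand: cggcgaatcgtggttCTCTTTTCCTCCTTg
RPS26, chr12:56041903-56041932, plus strand: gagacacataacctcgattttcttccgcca
RPL17, chr18:49492451-49492480, minus strand: cctctttccctaagcagcctgaggtgagtg
RPS27L, chr15:63157463-63157492, minus strand: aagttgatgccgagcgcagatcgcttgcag

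The first 5 of these were among the members with the highest values in the combination and carry a run. RPS6, RPL35 and RPS24 carry a run as well, and none of the 3 was called in the combination against control. RPS26, RPL17 and RPS27L show no run that begins at the listed start. Members without a run also rose. RPS28 and RPS29, whose windows are not shown, had none, and their means went from 389.3 and 361.2 CPM in control to 485.3 and 451.8 CPM in the combination. Medians with and without a run are given below. Pyrimidine runs elsewhere in a window, such as the one just before the listed start of RPL17, were not counted.

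Beyond the motif, the members share short, compact coding sequences. Coding length ran from 75 bases in RPL41, one of the shortest human proteins, to 1281 bases in RPL4, with a median of 471 bases. The GC content of their coding sequences had a median of 51.6%, against 52.9% over 18554 genes. The genes are scattered over 20 chromosomes, and chromosome 19 held the most, 12.

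The level of each member was compared per kilobase of annotated exon (RPKM after TMM, the trimmed mean of M-values normalization). In control, 73 of the 79 members tested stood above 100 RPKM. The highest was RPL8, a core protein near the peptidyl transferase centre, at 3723 ± 54.9 RPKM (SD, n = 3), followed by RPS2 of the mRNA entry site at 2943 ± 68.1 and RPLP0, the base of the stalk, at 1823 ± 36.6. RPL8 and RPS2 did not overlap in any control library. Among the lowest tested members were RPS18 at 9.14 ± 1 and RPS9 at 2.78 ± 2.91 RPKM, which are core proteins of the small subunit and are described at the end with the way their reads were counted.

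The other 2 members did not reach the filter on low counts. RPL10L, a retrogene copy of RPL10 used in the male germ line, had 0 counts in each of the 12 libraries, which allows at most 3 counts, or 0.0883 to 0.127 CPM, per library. RPL3L, the copy of RPL3 used in heart and skeletal muscle, had 0 to 3 counts per library. Their ubiquitous partners RPL10 and RPL3 stood at 243 and 1053 RPKM in control.

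All values that follow are CPM after TMM unless another scale is named. A member is called higher or lower at a Benjamini-Hochberg adjusted p under 0.05 from edgeR's quasi-likelihood test, fitted over all 14865 genes tested, with no minimum fold change. All comparisons with control share the same 3 control libraries. RNA amounts per cell were not measured, so values are relative to the other RNA of each library, and a rise cannot be told apart from a loss of other RNA.

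The summed level of the members was highest in the combination and, under TMM, lowest with trametinib. The sum was 58270, 58510 and 56910 CPM in the 3 control libraries, and 62760, 62770 and 61860 CPM with EC359. With trametinib it was 54840, 56040 and 56030 CPM, and in the combination 64730, 67040 and 66090 CPM. On this scale the 4 groups did not overlap. Relative to the control mean the sums were 1.079-fold with EC359, 0.961-fold with trametinib and 1.139-fold in the combination. Both subunits moved alike, with the large subunit at 1.138-fold and the small subunit at 1.142-fold in the combination. The log2 ratio of large to small subunit sums was 0.791 ± 0.0036 in control and 0.786 ± 0.0081 in the combination (SD, n = 3). As members were summed, no p is given.

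The scale decides the direction for EC359. TMM factors averaged 1.04 in control and 0.951 with EC359, so TMM placed every gene 0.13 higher on the log2 scale in EC359 against control than library totals did. This shift was 0.14 in the combination against control and 0.16 in the combination against trametinib, but -0.02 for trametinib, 0 for the combination against EC359 and 0.03 for the interaction. A rise smaller than its shift, as many rises given below are, therefore lies below 0 under library totals. As a plain share of all counts, members took 6.04% ± 0.075 in control, 5.94% ± 0.044 with EC359, 5.91% ± 0.078 with trametinib and 6.25% ± 0.11 in the combination (SD, n = 3). The 3 EC359 libraries (5.89% to 5.97%) overlapped the control libraries (5.96% to 6.09%) in that share, and the combination libraries (6.14% to 6.36%) lay above all others.

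**Figure D1:**
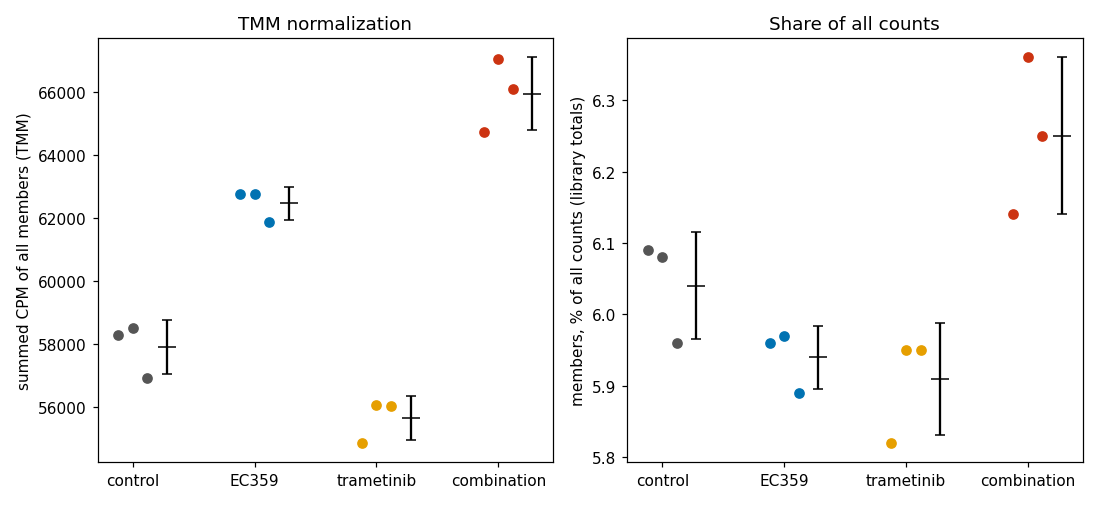
Summed level of the ribosomal protein genes by library, left as CPM after TMM and right as percent of all counts, with points for the 3 libraries of each group and bars for mean ± SD (neither axis starts at 0). On the left the EC359 libraries lie above control, at 61860 to 62770 CPM, and on the right, under library totals, this reverses in the means to 5.94% against 6.04%, while the combination is highest in both.

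To ask what EC359 alone did, the EC359 group was compared with control. Under TMM, 53 of 79 tested members were higher and 4 were lower, with a median log2 fold change of 0.09 (1.06-fold), and the split turned to 7 higher and 35 lower, with a median of -0.04, under library totals, where 44.3% of members and 44.9% of all genes were lower. Among all genes tested, 30.8% were higher and 30.3% lower, and among the 2382 genes over 100 CPM, which include 74 members, 52.3% were higher and 26.1% lower. The share of members higher was 67.1%, and the median over the abundant genes was 0.08. No member passed a 2-fold change with the test (edgeR, 0 also at an unadjusted p under 0.05 and 0 by DESeq2), as 6.98% of all genes did.

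RPL28 and RPL13A rose most. RPL28, a large subunit protein, had 278.5, 287.5 and 268.1 CPM in the control libraries and 344.1, 337 and 335 CPM with EC359. All 3 EC359 libraries lay above all controls. Its log2 fold change was 0.28 (SE 0.03, edgeR adjusted p = 2.9e-14). RPL13A, which also takes part in the GAIT complex that silences inflammatory mRNAs, went from 1124, 1133 and 1133 CPM to 1400, 1381 and 1348 CPM, a log2 fold change of 0.28 as well. RPL10, a late-joining protein of the large subunit, and RPL12 of the stalk base followed at 0.24 and 0.21. At the low end of the calls, RPL19 rose by 0.05 (SE 0.02) and its direction turned under library totals, to -0.08, and with a GC offset, to -0.01.

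The 4 members that fell were RPL39L, RPS26, RPS27L and RPL17. RPS26, which sits at the mRNA exit channel and in yeast can leave the ribosome under stress, had 252.9, 252 and 252.6 CPM in control and 213.2, 220 and 218.9 CPM with EC359. The groups were well apart, and its log2 fold change was -0.22 (SE 0.02, edgeR adjusted p = 4.5e-11). RPL17, at the rim of the exit tunnel, had 287.5, 282.5 and 274.9 CPM in control and 259.4, 268.3 and 259.1 CPM with EC359, a log2 fold change of -0.10. RPL39L, the testis- and cancer-associated copy of RPL39, fell by 0.34 on the log2 scale at 7.59 ± 0.906 CPM, a low level, and it was not called without control replicate 2 (-0.25) or without EC359 replicate 2 (-0.24). RPS27L was not called without control replicate 1 or EC359 replicate 3.

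**Figure D2:**
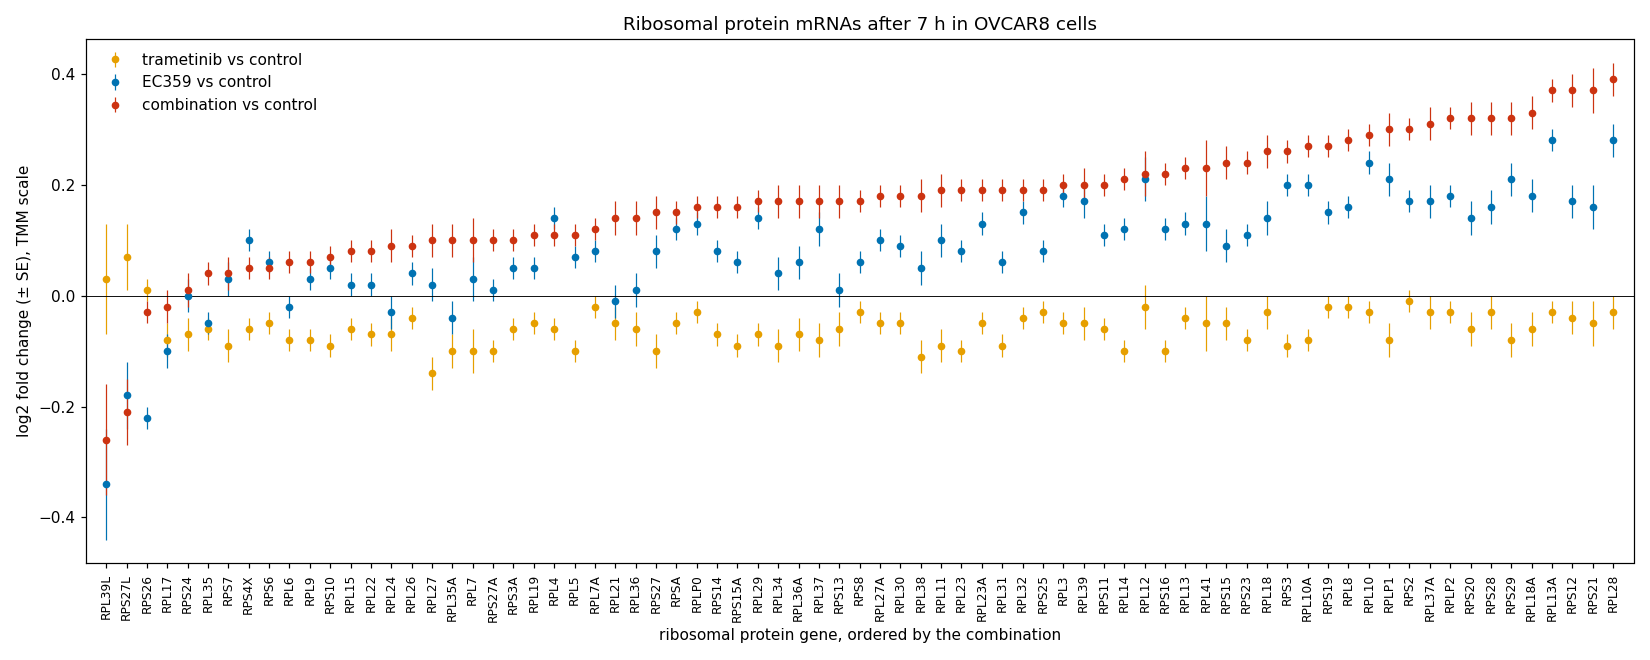
Log2 fold change (TMM scale, ± SE) against control of 75 ribosomal protein genes for EC359, trametinib and the combination, ordered by the combination; the other tested members, among them RPS9 and RPS18 with SEs from 0.49 to 0.66, are left out. Combination values run from -0.26 (RPL39L) to 0.39 (RPL28) and trametinib values lie between -0.14 and 0.07, while under library totals the EC359 points would lie 0.13 lower, with a median below 0.

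To ask what trametinib alone did, the trametinib group was compared with control. No member was higher and 31 of 79 were lower, with a median log2 fold change of -0.06 (0.961-fold). Lower members were 39.2%, against 15.2% of all genes and 29.1% of genes over 100 CPM, while 13% and 19.1% of these were higher. Under library totals 12 members, or 15.2%, were lower, against 11.9% of all genes. No member was higher at an unadjusted p under 0.05 with edgeR or by DESeq2. None passed 2-fold with edgeR's adjusted p, against 1.43% of all genes, but RPS9 did at an unadjusted p under 0.05 and by DESeq2, and its control mean comes largely from 1 library, described with its counts at the end. The count of 31 fell to 15 without trametinib replicate 1 and to 16 without control replicate 1 or 2.

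The changes with trametinib were small and even. RPL27, a large subunit protein, had 860.1, 859.6 and 813.4 CPM in control and 758, 756.8 and 776.5 CPM with trametinib. All trametinib libraries lay below all controls, and the log2 fold change was -0.14 (SE 0.03, edgeR adjusted p = 2.3e-05), the lowest among the called members. RPL38, known for the translation of Hox mRNAs, followed at -0.11, from 408.7, 415.3 and 394 CPM to 371.9, 376.1 and 379.9 CPM. RPS16 and RPL14 fell by 0.10 on the log2 scale, and RPL29, RPL22, RPL15 and RPL4 by 0.06 to 0.07. Each of the last 4 lost its call in 4 or 5 of the 12 fits that left out 1 library. The interquartile range of all members was -0.08 to -0.04.

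To ask what both agents did together, the combination was compared with control. Of 79 members, 68 were higher and 2 lower, with a median log2 fold change of 0.17 (1.12-fold). Under library totals 30 members (38%) were higher and 14 (17.7%) lower, with a median of 0.03, against 25.8% and 45.8% of all genes. Under TMM 35% of all genes were higher and 34.7% lower, and among genes over 100 CPM 54.1% were higher and 30.3% lower, with a median of 0.09. The large subunit had 44 of 47 members higher and the small subunit 24 of 32. No member passed a 2-fold change, as 13.1% of all genes did (edgeR, 0 also at an unadjusted p under 0.05 and 0 by DESeq2). In edgeR's test against 1.2-fold, 11 members exceeded that fold. The share of all genes that did so is not given here, so this count cannot be set against a background.

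RPL28, RPS21, RPS12 and RPL13A were the highest. RPL28 stood at 353.8, 363.2 and 374.5 CPM in the combination libraries, above every control and every EC359 library, with a log2 fold change of 0.39 against control (SE 0.03, edgeR adjusted p = 1.1e-19). RPS12, a small subunit protein that in flies senses competition between cells, went from 552.9, 541.3 and 515.8 CPM in control to 691.4, 678.2 and 706.2 CPM. RPS21, another small subunit protein, went from 375, 373.4 and 355.6 to 453.8, 480 and 492.7 CPM. Both had a log2 fold change of 0.37, as had RPL13A at 1412, 1500 and 1464 CPM. For these 4 members no library of the combination overlapped control.

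The 2 members that fell were the copies RPL39L and RPS27L. RPS27L, a copy of RPS27 that p53 can induce, had 25.71, 24.66 and 22.49 CPM in control, 21.25, 22.63 and 20.45 CPM with EC359 and 20.96, 21.8 and 19.95 CPM in the combination. The combination libraries lay below all controls, with a log2 fold change of -0.21 (SE 0.06, edgeR adjusted p = 0.0015). RPL39L went from 8.461, 10.81 and 9.506 CPM to 7.584, 8.122 and 8.417 CPM, at -0.26 (SE 0.10), and was not called by DESeq2 or without control replicate 2, combination replicate 1 or combination replicate 2, which left RPS27L as the 1 member lower. With the GC offset described later, 1 member was lower, RPS26, which was named after its value was seen, and neither RPL39L nor RPS27L was called. RPS26 was not called against control in the combination, at 243.6, 252.5 and 246.7 CPM and a log2 fold change of -0.03. At the low end of the calls, RPS4X rose by 0.05 and RPL6 by 0.06, and both turned to -0.08 under library totals. The call of RPS4X was lost in 8 of the 12 fits that left out 1 library each, and that of RPL6 without control replicate 3 or combination replicate 2.

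**Figure D3:**
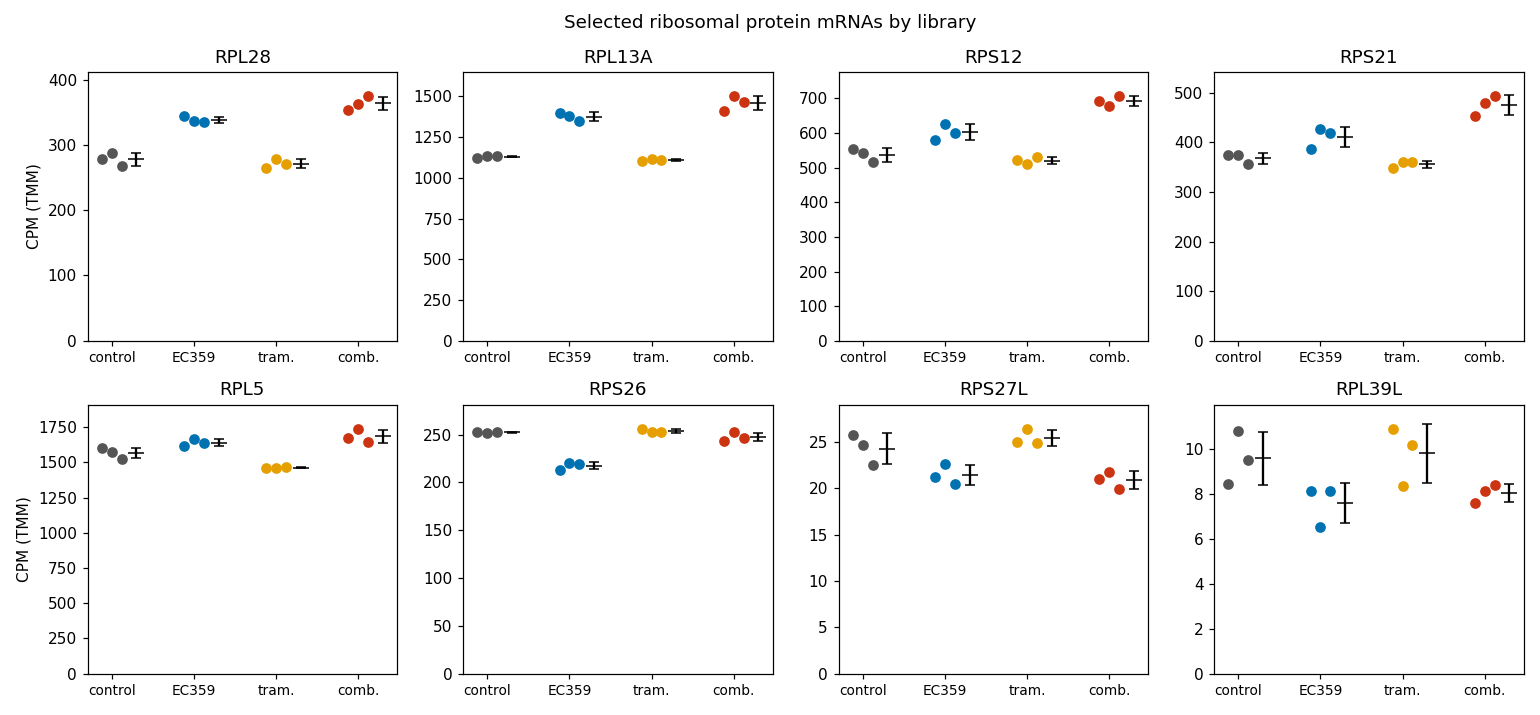
CPM after TMM by library for 8 ribosomal protein genes, with points for the 3 libraries of each group and bars for mean ± SD (axes start at 0; tram. and comb. stand for trametinib and combination). RPL28, RPL13A, RPS12 and RPS21 are highest in the combination, RPS26 is lowest with EC359 alone at 213.2 to 220 CPM, and RPS27L and RPL39L have lower means in both EC359 groups than in control; the first 4 stayed higher in the combination under library totals.

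Adding trametinib to EC359 was asked by comparing the combination with EC359. Of 79 members, 53 were higher and none lower, with a median of 0.09, against 24.1% higher and 25.2% lower among all genes and 35.9% and 31.7% among genes over 100 CPM (edgeR, 0 members lower at an unadjusted p under 0.05 and 0 by DESeq2). The 2 groups had nearly the same TMM factors, and 50 members (63.3%) were higher under library totals, against 23.4% of all genes. Without EC359 replicate 3, 1 member was lower, RPS4X, named after its value was seen. RPS21 and RPS12 rose most, by 0.21 and 0.20, then RPS26 by 0.19 and RPS20 by 0.18. RPS26 went from 213.2, 220 and 218.9 CPM with EC359 to 243.6, 252.5 and 246.7 CPM, with no overlap (SE 0.03, edgeR adjusted p = 6.2e-09). The smallest calls with libraries apart were RPL19, RPL10 and RPL22 at 0.06 and RPS3 at 0.07, and each lost its call in 2 to 4 of the 12 fits that left out 1 library.

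Adding EC359 to trametinib was asked by comparing the combination with trametinib. Here 73 members were higher and 2 lower, with a median of 0.24 (1.18-fold). Under library totals 45 members (57%) were higher and 7 (8.86%) lower, with a median of 0.07, against 23.5% and 47.6% of all genes. Under TMM 35.3% of all genes were higher and 32.9% lower, and among genes over 100 CPM 58.3% and 25.3%. RPL28 and RPS21 led at 0.42, with RPS12 at 0.41 and RPS29 at 0.40. RPL28 had 265.1, 278.6 and 270.6 CPM with trametinib, below each of its combination libraries. The 2 members that fell were RPL39L at -0.29 and RPS27L at -0.28, and RPL39L was not called without trametinib replicate 1 or combination replicate 1. RPL17 at 0.06, RPL35 at 0.09 and RPS6 at 0.10 were called higher on the TMM scale, but under library totals they turned to -0.10, -0.07 and -0.06.

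The interaction asks whether the combination differed from the sum of both single effects on the log2 scale. It was positive and called for 62 of 79 members and negative and called for none, with a median of 0.14 (1.11-fold). Under library totals 53 members (67.1%) had a positive call, with a median of 0.12, against 11.7% of all genes positive and 19.1% negative. Under TMM 14.4% of all genes had a positive and 15.9% a negative call, and among genes over 100 CPM 30.6% and 22.1%, with a median of 0.03. No member was negative at an unadjusted p under 0.05 with edgeR, and none by DESeq2. RPS21 had the highest called value at 0.26 (SE 0.05, edgeR adjusted p = 0.00063), followed by RPS20, RPS12 and RPL35A at 0.24. The lowest called values were 0.08 in RPSA and RPL32 and 0.09 in RPL10 and RPL26. Of the 12 fits that left out 1 library each, 6 lost the call of RPSA, 8 that of RPL32, 4 that of RPL10 and 7 that of RPL26, and none of the 4 was called under library totals.

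RPL38, named after its values were seen, was not called higher with EC359, unlike 53 of the 79 members. It had 406.7, 435.7 and 421.3 CPM with EC359, which overlapped control, and 371.9, 376.1 and 379.9 CPM with trametinib, below control. In the combination it had 450.6, 476.2 and 453.9 CPM, above all other libraries. Its interaction was 0.24 (SE 0.04, edgeR adjusted p = 4.7e-07).

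By role, the stalk, which recruits and activates the elongation factors, had all 4 genes (RPLP0, RPLP1, RPLP2, RPL12) higher with EC359 and in the combination, with a median of 0.26 in the latter. RPLP2 was the highest at 0.32 and RPLP0 the lowest at 0.16. With trametinib 1 of the 4, RPLP1, fell, by 0.08 on the log2 scale. The interaction was called for 2 of the 4. For comparison with this list and the next ones, 67.1% of all tested members were higher with EC359 and 86.1% in the combination. With trametinib 39.2% were lower, and 78.5% had a positive interaction. Over genes above 100 CPM these shares were 52.3%, 54.1%, 29.1% and 30.6%.

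RPL5 and RPL11 carry the 5S RNA and, when not built into ribosomes, bind MDM2. RPL5 had 1601, 1575 and 1526 CPM in control, 1619, 1665 and 1636 CPM with EC359, 1459, 1461 and 1464 CPM with trametinib and 1675, 1737 and 1648 CPM in the combination. It fell with trametinib, at -0.10 (SE 0.02), and rose with EC359, at 0.07, and in the combination, at 0.11. The combination value turned to -0.03 under library totals. RPL11 moved in the same directions, at -0.09, 0.10 and 0.19. The rises of both with EC359 were smaller than the 0.13 shift of that comparison, so they lie below 0 under library totals.

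The 9 genes at the exit tunnel and exit site, where the new protein leaves, had a lower median than the stalk, 0.11 in the combination, with 7 higher. That median is smaller than the 0.14 shift of TMM over library totals, so it would lie below 0 on that scale. RPL39 and RPL23A stood at 0.20 and 0.19. RPL17 at -0.02 and RPL35 at 0.04 were not called. With EC359, 5 of the 9 were higher and RPL17 was lower.

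At the mRNA entry site, RPS2 and RPS3, which line the channel where mRNA enters, were higher in the combination at 0.30 and 0.26, while RPS9 was not called. At the exit side RPS14 and RPS28 were higher, at 0.16 and 0.32, and RPS26 was not called. In the decoding region and head, RPS15, RPS16 and RPS23 were higher at 0.24, 0.22 and 0.24, and RPS18 was not called.

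RPS6, the classic substrate of the S6 kinases, changed little at the mRNA level. It had 991.6, 972.7 and 963.3 CPM in control and 1002, 1053 and 977.5 CPM in the combination, which overlapped, and its log2 fold change was 0.05 (SE 0.02, edgeR adjusted p = 0.058). With EC359 RPS6 was called at 0.06, less than the 0.13 shift of that comparison, so it lies below 0 under library totals. RPS27A, made as a fusion with ubiquitin, fell with trametinib, at -0.10, and rose in the combination, at 0.10 on the TMM scale and -0.04 under library totals.

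Of 11 members among those whose mutation can cause Diamond-Blackfan anaemia, a failure of red cell formation, a list that is not complete, 7 were higher in the combination, with a median of 0.08, and 7 were lower with trametinib, with a median of -0.07. In the combination 86.1% of all tested members and 54.1% of genes over 100 CPM were higher. The median of 0.08 is smaller than the 0.14 by which TMM lay above library totals in this comparison, so it would lie below 0 on that scale. With trametinib 39.2% and 29.1% were lower. RPS19, the gene most often affected in that disease, was the highest of these 11 in the combination at 0.27. RPS24, RPS7 and RPS26 of this list were not called there.

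Under TMM, the copies RPS27L and RPL39L and their ubiquitous partners RPS27 and RPL39 were called in opposite directions in the combination against control. RPS27 rose in the combination, at 0.15 (SE 0.03), and RPL39 at 0.20, while RPS27L and RPL39L fell as given above. The rise of RPS27 was close to the 0.14 by which TMM lay above library totals in this comparison. With the GC offset neither copy was called against control in the combination. The copies were far less abundant per length, at 22.4 and 13.7 RPKM in control for RPS27L and RPL39L, against 911 and 571 RPKM for RPS27 and RPL39.

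Of 6 relatives outside the naming rule, 3 were higher and 3 lower in the combination, against 35% and 34.7% of all genes. FAU, which encodes RPS30 fused to a ubiquitin-like protein, rose by 0.13. The paralogs RPL7L1, RPL26L1 and RPL36AL fell, at -0.78, -0.24 and -0.18. RPL7L1 had 89.1 CPM in control and a standard error of 0.04. RPL22L1 rose by 0.18 and had an interaction of 0.51 (SE 0.09).

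Of 20 other genes known for TOP mRNAs, 19 were tested, and in the combination 16 were higher and 1 lower, with a median of 0.22. EEF2, the translocation factor, rose by 0.58 (SE 0.02), TPT1 by 0.40, PABPC1, the poly(A) binding protein, by 0.36 and EEF1A1 by 0.31. EIF3E fell, at -0.09. With EC359, 13 of 19 were higher, with a median of 0.21, and with trametinib 7 of 19 were lower, with a median of -0.05. Their interaction was called for 8 of 19, with a median of 0.07, against 62 of 79 and 0.14 for the ribosomal proteins. This difference between the lists was not tested. Over genes above 100 CPM the background was 54.1% higher and 30.3% lower in the combination, 52.3% higher with EC359, 29.1% lower with trametinib and 30.6% positive for the interaction.

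Among 12 genes of mTORC1 and its targets, 4 were higher and 5 lower in the combination, shares near those over all genes (35% and 34.7%). TSC1, a brake on mTORC1, rose by 0.91 (SE 0.03), AKT1S1, which encodes the mTORC1 inhibitor PRAS40, by 0.61 and TSC2 by 0.47. LARP1, which binds TOP mRNAs, fell, at -0.18, and EIF4E, the cap-binding protein, at -0.32. The other called genes were RHEB, which rose by 0.25, and RPTOR, EIF4EBP1 and EIF4EBP2, which fell, at -0.24, -0.06 and -0.28. Of 6 S6 and RSK kinase genes, 4 were tested, and RPS6KB1 and RPS6KA1 rose, by 0.12 and 0.14. RNA levels do not measure the activity of these kinases.

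The spread among members went along with base composition. Over the 75 tested members with 1 locus, log2 fold change and the GC content of the coding sequence had a Pearson's r of 0.51 and a Spearman's rho of 0.49 in the combination, and 0.46 and 0.50 with EC359. These are descriptions across genes of the same libraries, which are not independent. Split into groups of 25 by GC content, the median in the combination was 0.10 at 40.3% to 47.9% GC, 0.18 in the middle and 0.24 at 53.9% to 63.4% GC. With EC359 these medians were 0.04, 0.12 and 0.14, with trametinib -0.08, -0.06 and -0.05 (Pearson's r 0.21, rho 0.35), and for the interaction 0.16, 0.15 and 0.14. Over 2219 other genes above 100 CPM, rho was 0.14 in the combination and 0.09 with EC359.

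When each library was given an offset for GC content, chosen after these data were seen, members higher with EC359 went from 53 to 28 and lower from 4 to 11, with a median of 0.03. The combination kept 66 higher and 1 lower, with a median of 0.16, and the interaction had 69 positive calls, with a median of 0.18. This fit covered the 12888 of 14865 tested genes with a GC value. The shares of all genes called with the offset are not given here, so these counts cannot be set against a background. What GC content stands for here was not tested.

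**Figure D4:**
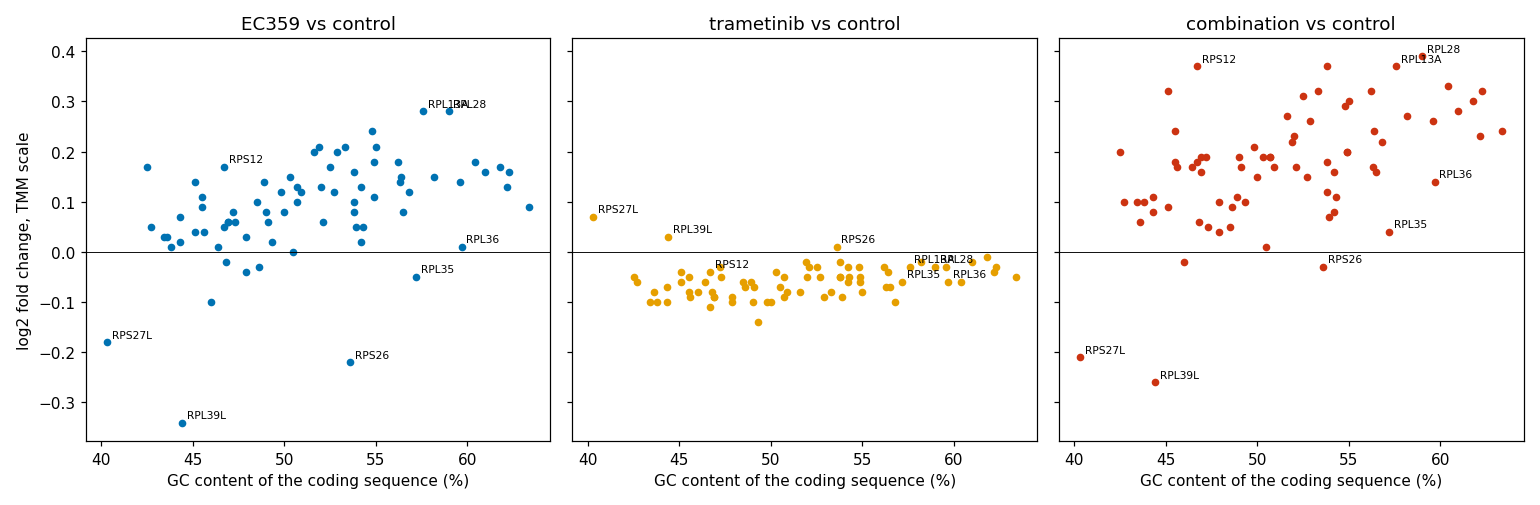
Log2 fold change against control (TMM scale) by GC content of the coding sequence for 75 ribosomal protein genes with 1 locus, in 3 panels for EC359, trametinib and the combination. Spearman's rho was 0.50 for EC359, 0.35 for trametinib and 0.49 for the combination, with RPS26 and RPL35 low for their GC content and RPS12 high; under library totals the EC359 points would lie 0.13 lower and most below 0.

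The motif at the start went along with the change in the same loose way. In the combination the 43 tested members of 1 locus with a TOP run had a median of 0.18, against 0.10 for the 17 without one. With EC359 the medians were 0.10 and 0.05, and with trametinib -0.06 in both. Among members with a run, values in the combination reached from RPS24 at 0.01 to RPL28 at 0.39. No test was made on this split.

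The rows of 4 members sum the exons of several annotated loci. RPL21 has 2 loci on reference chromosomes, and RPS9 and RPS18 have 9 and 5 further copies on alternate sequences of the assembly. RPS9 and RPS18 had few counts and did not keep step between libraries. RPS9 had 1228 counts in control replicate 1, against 240 and 273 in the other controls and 154.5 to 284.4 in the 9 treated libraries. RPS18 ran from 395.3 to 1698 counts, both within EC359.

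Neither RPS9 nor RPS18 was called in any comparison. Their fitted log2 fold changes carried standard errors of 0.49 to 0.66 against control, for instance -1.59 (SE 0.66, edgeR adjusted p = 0.12) for RPS9 with trametinib. RPL21 did not share this pattern, with 221.9 to 224.2 CPM in control and 238.6 to 252.3 CPM in the combination, a log2 fold change of 0.14. The authors' counting left out reads with a mapping quality under 2 and divided reads among placements. Its part in these low rows was not tested, so their levels cannot be read as low expression. Without the 4 rows, 67 members were higher and 2 lower in the combination, with a median of 0.18.

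**Figure D5:**
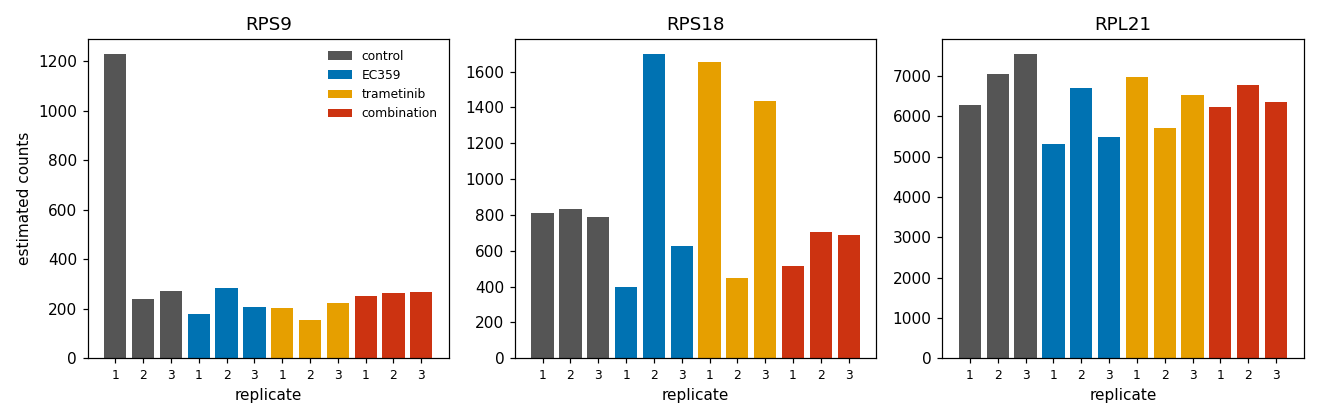
Estimated counts, not normalized, in each of the 12 libraries for 3 ribosomal protein genes whose rows sum several loci, coloured by group with replicates 1 to 3 in each. RPS9 (1228 in control replicate 1) and RPS18 (395.3 to 1698) vary widely between libraries of a group, and RPL21 varies less.

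Processed copies of ribosomal protein genes can take reads from their parents. The annotation held 31 such pseudogene rows, which summed to 0.58% to 0.631% of the members' counts in each library. The share was 0.603% to 0.631% in control and 0.58% to 0.601% in the combination.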

How the data were processed

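RNA-seq of polyadenylated RNA was analysed from 12 libraries. The deposited values are estimated counts (expected counts) without normalization. Per the file headers, they came from featureCounts 1.5.0-p1, which counted stranded read pairs with a mapping quality of at least 2 on the exons of each gene (hg38), and divided a read among its placements or genes. HISAT2 and bcl2fastq are named in the submitters' processing notes without versions. Values were rounded.

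edgeR 4.0.16 in R 4.3.3 was used. Genes passed filterByExpr at 10 counts and a total of 15, were scaled by TMM and fitted in 1 robust quasi-likelihood model of the 4 groups, with Benjamini-Hochberg adjustment over all genes. The interaction is the combination minus the sum of both single log2 effects. DESeq2 1.42.0, other scalings and filters, and fits without each library were alternatives, and the code was tested on simulated data. GC content came from GENCODE 29. Replicate numbers were taken from the labels and did not pair the libraries. Within groups, counts of replicates differed by more than sampling noise (chi-square per gene of 2.67 to 7.36), so each library counted once.

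The members and gene lists were chosen with earlier results of these data known. Named genes are those of the role lists, the 4 lowest and 4 highest called members per comparison with libraries apart (for the interaction, among called members), untested members, and the 3 most and least abundant. Others named (RPS27L and RPL39L where libraries overlap, RPL38's interaction, RPL10L's and RPL3L's partners) were chosen after their values were seen. Intervals and floors cover counting error only. Values of some single genes are not reported here, and the counts and sums over lists include them.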

Additional observations from a re-analysis of the deposited data

Results flagged for a closer look

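The effect of each agent on the ribosomal protein genes differed with and without the other agent by the interaction test (edgeR, adjusted over all genes). The interaction was positive and called for 62 of 79 members, with a median of 0.14 on the log2 scale. Over all genes 14.4% had a positive and 15.9% a negative call, and over genes above 100 CPM 30.6% and 22.1%. Among the members named for it, the values were 0.08 in RPSA, 0.08 in RPL32, 0.09 in RPL10 and 0.09 in RPL26 at the low end, and 0.24 in RPL35A, 0.24 in RPS12, 0.24 in RPS20 and 0.26 in RPS21 at the high end. The 4 low values lost their calls in 6, 8, 4 and 7 of the 12 fits that left out 1 library each. The cause was not tested.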

How the results depend on the processing

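Scaling by library totals in place of TMM turned directions. With EC359 7 members were higher and 35 lower, with a median of -0.04. With trametinib 12 were lower, with a median of -0.03. In the combination against control 30 were higher and 14 lower, with a median of 0.03, and against trametinib 45 and 7, with a median of 0.07. On this scale 21% of all genes were higher and 44.9% lower with EC359, and 11.9% were lower with trametinib. The shares of all genes higher and lower in the combination were 25.8% and 45.8% against control, and 23.5% and 47.6% against trametinib. The members then summed to a mean of 62510 CPM in the combination, 60420 in control, 59400 in the EC359 group and 59080 in the trametinib group. Of the 101 values of named genes that were followed over the alternatives, 15 reversed. These were RPL19 with EC359 (-0.08), RPL17 (-0.10), RPL35 (-0.07) and RPS6 (-0.06) in the combination against trametinib, and 11 in the combination against control, namely RPS4X (-0.08), RPL6 (-0.08), RPS10 (-0.07), RPL22 (-0.06), RPL15 (-0.06), RPL26 (-0.05), RPS27A (-0.04), RPL35A (-0.04), RPL5 (-0.03), RPL4 (-0.03) and RPL19 (-0.03). Some values given above are not among the 101. With EC359, RPL5 (0.07), RPL11 (0.10) and RPS6 (0.06) rose by less than the 0.13 shift between the scales, so they also lie below 0 under library totals. This scale leaves out the shift between groups that TMM removes, and which scale is closer to RNA per cell was not tested.

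With a minimum of 2-fold, 0 members were called in any comparison. In edgeR's test against 1.2-fold, 11 members were higher in the combination against control and 19 against trametinib, and 0 were called with EC359 in either direction, with trametinib, against EC359 or for the interaction, or lower in the combination. This test kept 11 of 101 calls of named genes. The shares of all genes passing it are not given here, so its counts of members cannot be set against a background. DESeq2 left 1 member lower in the combination against control.

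Leaving out members whose counts were not whole in 6 or more libraries kept 2 tested members, RPL39L and RPS27L, and so says little. Of these, 0 were higher and 2 lower with EC359 (median -0.26), 0 lower with trametinib (0.05), 0 higher in the combination against control (-0.23), EC359 (0.02) or trametinib (-0.29), and 0 called for the interaction (-0.03).

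The GC offset, chosen after seeing the data, gave 28 higher and 11 lower with EC359 (median 0.03), 1 lower in the combination against control, medians of 0.13 against EC359 and 0.21 against trametinib, and 0.18 for the interaction. RPL19 with EC359 turned to -0.01. The shares of all genes called with this offset are not given here.

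With 1 library left out, members higher with EC359 ranged from 41 to 53 and lower from 3 to 5 (median 0.08 to 0.11), and lower with trametinib from 15 to 34 (-0.07 to -0.05). In the combination against control 63 to 69 were higher and 1 to 2 lower (0.16 to 0.19), against EC359 42 to 53 higher and 0 to 1 lower (0.07 to 0.10), and against trametinib 71 to 74 higher and 1 to 2 lower (0.22 to 0.25). The interaction was called for 56 to 64 (0.13 to 0.16).

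The labels number the replicates 1 to 3 in each group. Deviations of libraries with the same number correlated from -0.193 to 0.271 over 18 pairs, with a median of -0.024, and 2 of 12 libraries were closest to their own number, so the numbers were not taken as a pairing. With the replicate block, 51 members were higher and 4 lower with EC359, 31 were lower with trametinib, 69 were higher and 2 lower in the combination against control, 52 higher against EC359, 73 higher and 2 lower against trametinib, and the interaction was called for 62. The block changed none of the 101 calls of named genes.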
